A study of Capra hircus with 10 samples.

Results

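The 5-alpha reductases and the hydroxysteroid dehydrogenases are oxidoreductases that finish, activate or inactivate steroid hormones, and several of them also act on fatty acids. The genes described here were chosen by name, as 10 symbols of this family, and all 10 are among the 20587 protein-coding gene symbols of the deposited table. They are SRD5A1, SRD5A2, SRD5A3, HSD11B1, HSD11B2, HSD17B4, HSD17B8, HSD17B10, HSD17B11 and HSD17B12, and together they have 17 transcripts. Whole ovaries of anhui white goats were sequenced, 5 labelled as luteal phase and 5 as follicular phase, with no treatment named for either group. The ovaries came from a slaughterhouse, and the age of the animals and the way the phase was assigned are not given in the sources used here. Nothing in the labels says that the ovaries of a phase came from different goats, so the p-values measure only the spread between these ovaries.

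A 5-alpha reductase saturates a double bond in the ring of a steroid, and so turns testosterone into dihydrotestosterone and progesterone into dihydroprogesterone. The 11-beta-hydroxysteroid dehydrogenases work as a pair, with HSD11B1 regenerating active glucocorticoid and HSD11B2 inactivating it. The 17-beta enzymes are named for the oxidation or reduction of estrogens and androgens, yet most of those listed here are best known for their work on fatty acids. In the ovary, the follicle makes androgens and estrogens, and the corpus luteum that replaces it makes progesterone.

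Levels are given as FPKM, the fragments mapped to a transcript, scaled to its length and to all mapped fragments of the library, summed over the protein-coding transcripts of a symbol. FPKM accounts for length, so levels may be compared between genes. Values written with ± are the mean and SD over the 5 ovaries of a phase, luteal before follicular. The files used here hold no read counts, and the depth of each ovary is unknown. FPKM summed over the table lay between 452508 and 540124 per ovary. The phases were compared with limma on log2(FPKM + 0.1), luteal minus follicular, two-sided, with Benjamini-Hochberg adjustment over all 15359 genes that reached an FPKM of 0.1 in at least 5 ovaries. An adjusted p under 0.05 is a call. Fold changes are on the log2(FPKM + 0.1) scale, which understates the change of low genes. The median log2 fold change of all genes tested was -0.14, and it was -0.05 after the ovaries were shifted to a common median.

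Of the 10 genes, 5 were higher in luteal ovaries, none was higher in follicular ovaries and 5 were not called. The called genes were SRD5A2, HSD17B12, HSD17B8, HSD11B2 and HSD17B4. Of all genes tested, 43.7% were called, 15.9% as higher in luteal and 27.8% as higher in follicular ovaries. That is a luteal share of 36.3% of the calls, which was 48.8% with a common median, 41.8% with quantile normalization and 52.5% with TPM. The estimate was above 0 for 10 of the 10 genes, with a median log2 fold change of 0.25, and for 38.0% of all genes tested. Of 13 relatives tested outside the 10, 6 were called higher in luteal ovaries and 2 lower, HSD17B1 (-1.24) and HSD11B1L (-0.85). The 10 genes were chosen with earlier results of these data known, so nothing is read from the tally of the 10. It also rests on genes near 0, since HSD11B1, at 0.03, was at -0.16 without luteal replicate 3 and at -0.09 without follicular replicate 3, and HSD17B11 was at 0.0015 without follicular replicate 2. The phases did not overlap for 3 of the 10 genes, SRD5A2, HSD17B8 and HSD17B12, each with every luteal ovary above every follicular one. Among all genes tested 28.4% had phases that did not overlap, and 11.2% had every luteal ovary on top. HSD17B8 and HSD17B12 were also called under every alternative tried. The 5 luteal ovaries alone were enough for SRD5A2 to pass the filter, so that its calls with a filter are no sign of stability, and without any filter it was called at a limma adjusted p of 5.12e-09. The calls of HSD11B2 and HSD17B4 depended on single ovaries, and without luteal replicate 4, follicular replicate 3 or follicular replicate 4 the number of called genes was 3 in place of 5.

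**Figure D1:**
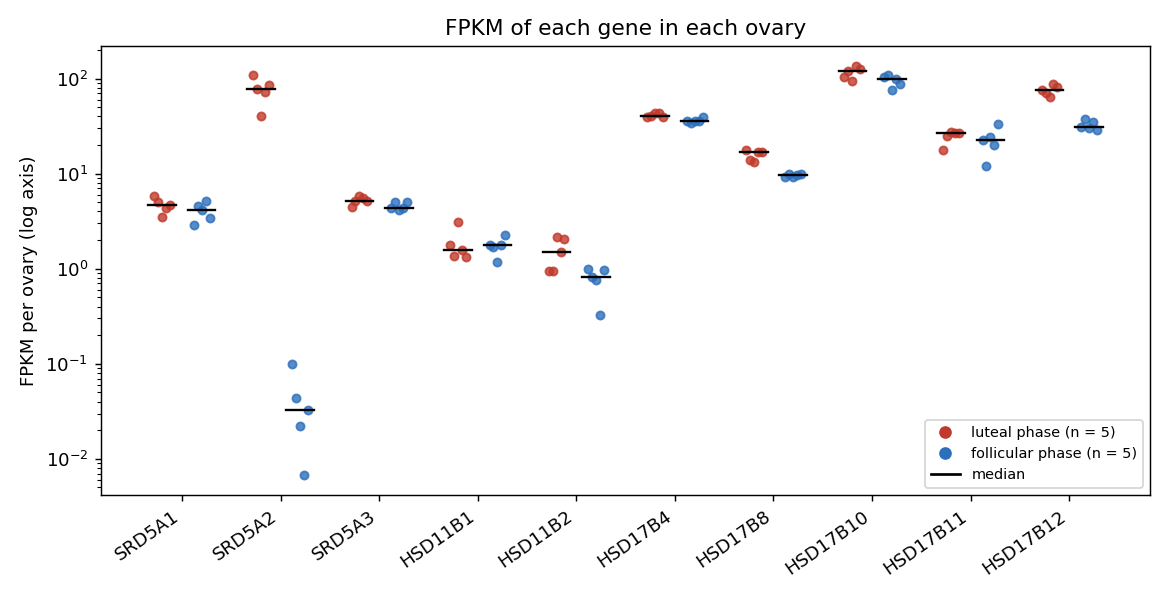
FPKM of each of the 10 genes in each ovary on a log axis, with the 5 luteal and the 5 follicular ovaries in separate colours and the median of each phase as a line. SRD5A2 lies between 40.0 and 108 in luteal ovaries and between 0.00683 and 0.1002 in follicular ovaries, and HSD17B12 and HSD17B8 are the other genes whose phases do not overlap.

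Ranked by their luteal medians, the genes ran from HSD17B10 (119 FPKM) through SRD5A2 (77.7), HSD17B12 (75.0), HSD17B4 (40.8), HSD17B11 (26.7), HSD17B8 (16.7), SRD5A3 (5.11), SRD5A1 (4.66) and HSD11B1 (1.59) to HSD11B2 (1.49). Neighbours in this order had overlapping ranges at the top, where SRD5A2 overlapped both HSD17B10 and HSD17B12, and in the pairs SRD5A3 with SRD5A1 and HSD11B1 with HSD11B2. The follicular medians ran from HSD17B10 (98.9) through HSD17B4 (36.0), HSD17B12 (31.1), HSD17B11 (22.5), HSD17B8 (9.77), SRD5A3 (4.39), SRD5A1 (4.15), HSD11B1 (1.77) and HSD11B2 (0.817) to SRD5A2 (0.0329). There HSD17B12 overlapped its neighbours HSD17B4 and HSD17B11, and SRD5A3 overlapped SRD5A1. SRD5A2 was thus the lowest of the family in follicular ovaries and among the highest in luteal ovaries. The other genes kept their order apart from HSD17B4 and HSD17B12, which changed places.

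Among the 5-alpha reductases, SRD5A2 was the gene that was called. This isozyme is best known from the prostate and from male development. Its FPKM was 108, 77.7, 40.0, 71.5 and 85.1 in luteal replicates 1 to 5, and 0.1002, 0.0441, 0.0222, 0.00683 and 0.0329 in follicular replicates 1 to 5. Every luteal ovary lay far above every follicular ovary, and even the lowest luteal ovary, replicate 3, was at the level of HSD17B4. The means were 76.5 ± 24.6 against 0.0412 ± 0.0357. By limma the log2 fold change was 9.04 (SE 0.25, 95% confidence interval 8.495 to 9.59, adjusted p = 1.00e-09), and only 2 of the 15359 genes tested had a larger one. The follicular values are so low that this size follows the pseudocount, from 6.15 with a pseudocount of 1 to 10.74 with 0.01. Its rank among the genes was taken with the pseudocount of 0.1 alone. Beside the 5 luteal ovaries, follicular replicate 1 reached the filter value of 0.1. In level SRD5A2 stood at the 94.8th percentile of the genes tested in luteal ovaries and at the 0.247th percentile in follicular ovaries. The follicular percentile is set in part by the filter, which took out most low genes and kept SRD5A2 through its luteal ovaries.

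Markers of the corpus luteum differed between the phases in the same direction as SRD5A2. All 6 of the 6 markers in the table (STAR, CYP11A1, OXT, LHCGR, PTGFR and SCARB1) were called higher in luteal ovaries, where 15.9% of all genes tested were. No marker was listed at 0 in any ovary, and their summed FPKM was 5905 to 8076 against 131 to 183. Luteal replicate 3 had both the lowest SRD5A2 and the lowest sum of these markers among the luteal ovaries, 5905 where the others had 7681 to 8076. This was not particular to SRD5A2. The same ovary was also the lowest luteal one for SRD5A1, HSD17B8, HSD17B10 and HSD17B12. It was the highest for SRD5A3, HSD11B1, HSD11B2, HSD17B4 and HSD17B11. Replicate 1 had both the highest SRD5A2 and the highest sum among the luteal ovaries, and so had replicate 1 among the follicular ovaries. The order was shared in part, since luteal replicate 5 had the second highest SRD5A2 and the second lowest sum, and in follicular ovaries SRD5A2 was lowest in replicate 4 and the sum in replicate 3. The part of tissue make-up in the result was not tested. In whole ovaries, fewer cells of a type and less RNA per cell cannot be told apart. Without luteal replicate 3 the log2 fold change of SRD5A2 was 9.26.

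The 4 transcripts of SRD5A2 passed the filter through the 5 luteal ovaries alone, since no follicular value of any of them was above 0.0547 FPKM, so their calls were fixed by the filter and count for nothing here. Of the other 13 transcripts of the family, 2 were called, both higher in luteal ovaries, the 1 of HSD17B12 and 1 of HSD17B8. Over all 32842 transcripts tested, 17.3% were called and 7.47% were called higher in luteal ovaries. XM_018055083.1 held the largest share of the SRD5A2 FPKM in luteal ovaries, 38.1 ± 3.64%, followed by XM_005686388.3 with 28.6 ± 2.02%, XM_018055084.1 with 24.2 ± 1.80% and XM_018055086.1 with 9.15 ± 1.82%. The shares varied less between luteal ovaries than the level did. In follicular ovaries 13 of the 20 values of these transcripts were listed at 0, and XM_018055086.1 was listed at 0 in all 5. A listed 0 in a table without counts can be a failed estimate and does not show that a transcript was absent. Unequal change between the transcripts of a gene was tested with limma's diffSplice, which called 4.95% of 6481 genes. SRD5A2 was called (adjusted p = 0.00493), but with follicular values at or near 0 the folds of its transcripts follow the pseudocount and their level, and the call is given no weight.

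**Figure D2:**
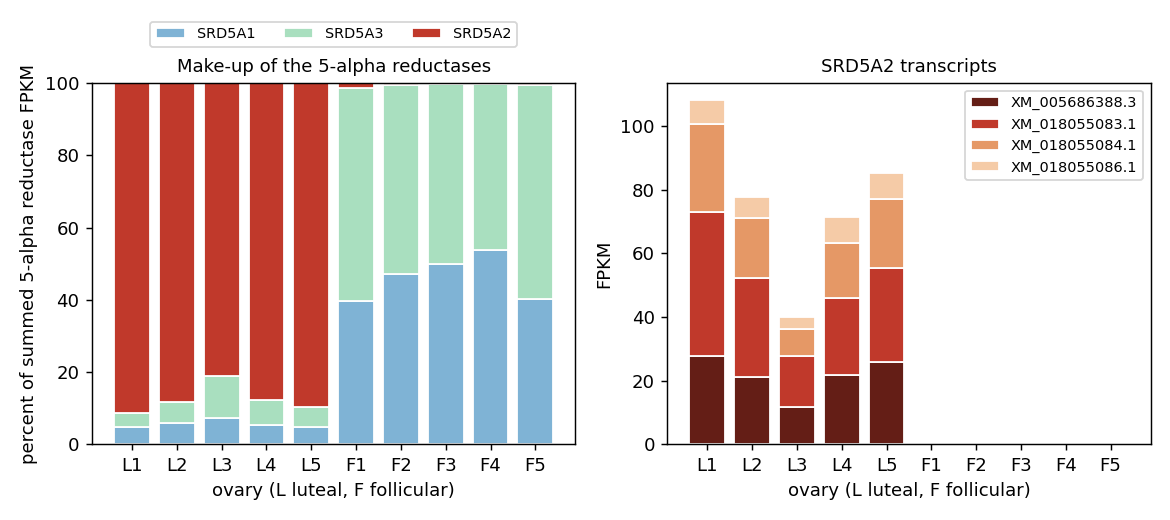
Percent of the summed 5-alpha reductase FPKM held by each gene in each ovary, and FPKM of the 4 SRD5A2 transcripts stacked per ovary. SRD5A2 holds 81.1 to 91.3% of the sum in luteal ovaries and at most 1.37% in follicular ovaries.

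SRD5A1, the isozyme found in many tissues, had an FPKM of 4.69 ± 0.837 against 4.03 ± 0.872. The luteal ovaries ran from 3.53 to 5.78 and the follicular ovaries from 2.89 to 5.10, with 1 luteal ovary above all follicular ones. The difference was not called (log2 fold change 0.22, 95% confidence interval -0.15 to 0.60, limma adjusted p = 0.311). The SRD5A1 sum includes XR_001919796.1 and XR_001919797.1, which carry the accession prefix of non-coding RNA although the table types them as protein coding. The coding transcript XM_018065693.1 alone was at 3.09 ± 0.697 against 2.48 ± 0.833 and was not called either (log2 fold change 0.37, adjusted p = 0.431 over all transcripts).

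SRD5A3 acts in the conversion of polyprenol to dolichol, the lipid on which N-linked sugar chains are built. It was at 5.20 ± 0.488 against 4.59 ± 0.430 FPKM. Of the luteal ovaries, 4 lay above all follicular ovaries and replicate 1 lay within their range, and the difference was not called (log2 fold change 0.18, 95% confidence interval -0.05 to 0.40, limma adjusted p = 0.181). Of 20 genes for dolichol and N-glycan lipid synthesis tested beside it, 3 rose in luteal ovaries, none fell and 17 were not called, with a median log2 fold change of 0.11, where 15.9% of all genes tested were called higher in luteal ovaries. With a common median or TPM 6 of the 20 rose, and with quantile normalization 5 rose and 1 fell. DPM2, a subunit of dolichol phosphate mannose synthase, was at 18.8 ± 2.03 against 10.6 ± 1.94 (log2 fold change 0.83, adjusted p = 0.000546), and the glucosyltransferase gene ALG6 (0.34) and the mannosyltransferase gene ALG11 (0.32) were also called. DHDDS and NUS1, the subunits that build the polyprenol chain, had log2 fold changes of 0.10 and 0.07 and were not called. DHRSX, a dehydrogenase of the same route, was at 3.40 ± 0.561 against 3.38 ± 0.218 FPKM.

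The make-up of the 5-alpha reductases differed between the phases. Their summed FPKM was 86.4 ± 25.0 against 8.66 ± 0.941. SRD5A2 held 87.7 ± 3.91% of it in luteal ovaries and 0.510 ± 0.503% in follicular ovaries, where SRD5A3 held 53.3 ± 5.75% and SRD5A1 46.1 ± 6.11%.

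CYP17A1, which makes the androgen precursors and is listed under the symbol LOC102182663, was lower in luteal ovaries, at 7.48 ± 3.88 against 23.4 ± 10.2 FPKM (log2 fold change -1.71, limma adjusted p = 0.00390). STAR, which carries cholesterol into the mitochondrion, and CYP11A1, which makes pregnenolone from it, were higher by 7.35 and 4.87 on the log2 scale. SCARB1, the lipoprotein receptor that takes up cholesterol, was higher by 4.01. Of the 10 core steroidogenesis genes tested, 6 rose, 2 fell (CYP17A1 and CYB5A) and 2 were not called, with a median log2 fold change of 1.41. Among all genes tested, 15.9% were called higher in luteal ovaries and 27.8% lower.

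The 11-beta pair was low in all ovaries. HSD11B2 had an FPKM of 0.953, 0.957, 2.13, 1.49 and 2.05 in luteal replicates 1 to 5, and of 1.0002, 0.817, 0.770, 0.324 and 0.964 in follicular replicates 1 to 5. Luteal replicates 3, 4 and 5 lay above all follicular ovaries, and luteal replicates 1 and 2 lay within the follicular range. HSD11B2 was called, with a log2 fold change of 0.89 (SE 0.31, 95% confidence interval 0.21 to 1.56, limma adjusted p = 0.0375). The call was lost without luteal replicate 3, 4 or 5, without follicular replicate 3 or 4, without the filter on low values and with the most abundant transcript of each gene. The limma adjusted p ran from 0.0181 to 0.0881 over all alternatives of the gene test. In the test over all transcripts, the only transcript of HSD11B2 was not called (limma adjusted p = 0.105).

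HSD11B1 had an FPKM of 1.79, 1.36, 3.09, 1.59 and 1.32 in luteal replicates 1 to 5, and of 1.77, 1.68, 1.17, 1.79 and 2.25 in follicular replicates 1 to 5. The ranges overlapped, and luteal replicate 3 alone lay above the follicular ovaries. The log2 fold change of 0.03 was not called (95% confidence interval -0.48 to 0.55, limma adjusted p = 0.918), and it was -0.16 without luteal replicate 3. XM_005691043.3 carried 91.6 ± 13.7% of HSD11B1 in luteal and 86.7 ± 14.4% in follicular ovaries.

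The log2 ratio of HSD11B1 to HSD11B2 within an ovary, with the pseudocount of 0.1 on both, was 0.84, 0.47, 0.51, 0.08 and -0.60 in luteal replicates 1 to 5. It was 0.77, 0.96, 0.55, 2.16 and 1.14 in follicular replicates 1 to 5. In 4 of 5 luteal ovaries the ratio lay below the lowest follicular ratio. The means were 0.26 ± 0.55 and 1.11 ± 0.62, a difference of -0.85 (two-sided exact permutation p = 0.0317, where the smallest possible is 0.00794). The exact p was 0.0556 with a pseudocount of 1, and it was 0.0635 when any 1 of luteal replicates 2, 4 and 5 or follicular replicates 2, 4 and 5 was left out.

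**Figure D3:**
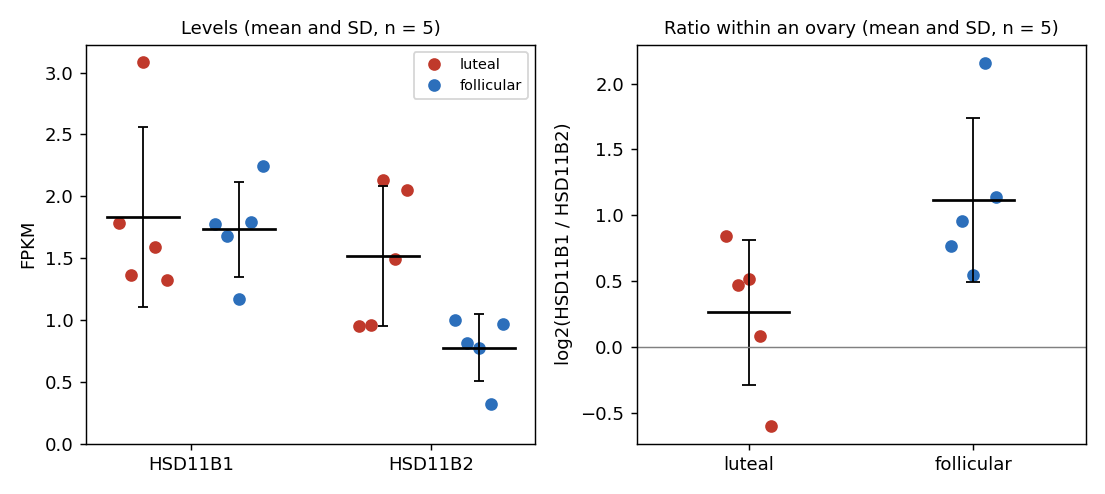
FPKM of HSD11B1 and HSD11B2 per ovary, and the log2 ratio of HSD11B1 to HSD11B2 per ovary with the mean and SD of each phase (5 ovaries each). The mean ratio is 0.26 in luteal and 1.11 in follicular ovaries, and luteal replicate 1 lies within the follicular range.

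Of 12 genes of glucocorticoid and androgen action tested beside the pair, 3 rose, 4 fell and 5 were not called, with a median log2 fold change of -0.20. Over all genes tested, 15.9% were called higher in luteal ovaries and 27.8% lower. H6PD, which supplies the NADPH that HSD11B1 uses, was at 7.85 ± 1.27 against 8.18 ± 1.35 FPKM and was not called (limma adjusted p = 0.738). The glucocorticoid receptor gene NR3C1, at 19.3 ± 2.34 against 21.3 ± 3.37, was not called either (adjusted p = 0.389). The mineralocorticoid receptor gene NR3C2, whose product HSD11B2 shields from cortisol in the kidney, was lower in luteal ovaries, at 1.10 ± 0.343 against 2.58 ± 1.06 (log2 fold change -1.10, adjusted p = 0.0127). SGK1, a kinase gene that corticosteroids induce, was higher, at 48.1 ± 13.1 against 13.1 ± 1.96 (log2 fold change 1.84, adjusted p = 2.02e-05). ZBTB16, another gene that glucocorticoids induce, was lower (log2 fold change -1.09, adjusted p = 0.00403).

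HSD17B12 had the largest change among the 17-beta genes of the family. The enzyme sits in the endoplasmic reticulum and carries out the ketone reduction in each round of very long chain fatty acid elongation. Its FPKM was 75.0, 70.8, 63.5, 87.1 and 82.4 in luteal replicates 1 to 5, and 31.1, 37.6, 30.5, 35.3 and 28.9 in follicular replicates 1 to 5. The lowest luteal ovary, replicate 3, lay well above the highest follicular ovary, replicate 2. The means were 75.8 ± 9.35 against 32.7 ± 3.64, with a log2 fold change of 1.21 (SE 0.10, 95% confidence interval 0.99 to 1.43, limma adjusted p = 7.31e-06). Over all alternatives the log2 fold change ran from 1.13 to 1.31.

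Of 11 genes for the other steps of elongation, 5 rose in luteal ovaries, 3 fell and 3 were not called, with a median log2 fold change of 0.22. The shares called over all genes tested were 15.9% higher and 27.8% lower in luteal ovaries. ELOVL enzymes add the carbon units, HACD enzymes remove water and TECR reduces the last double bond. ELOVL5, which extends polyunsaturated chains, was at 88.5 ± 17.3 against 27.3 ± 7.50 FPKM (log2 fold change 1.71, limma adjusted p = 2.91e-05). ELOVL6, which extends palmitate, was higher by 1.69 on the log2 scale, and ELOVL7 by 1.49. TECR was at 29.1 ± 3.94 against 12.6 ± 2.59 (log2 fold change 1.22, adjusted p = 7.68e-05). The genes that fell were ELOVL2, ELOVL4 and HACD1, so the list moved both ways.

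HSD17B8 joins CBR4 in the ketone-reducing step of fatty acid synthesis in the mitochondrion, and it can also oxidize estradiol. Its FPKM was 17.6, 13.9, 13.4, 16.9 and 16.7 in luteal replicates 1 to 5, and 9.28, 10.02, 9.26, 9.77 and 9.82 in follicular replicates 1 to 5. All luteal ovaries lay above all follicular ovaries, which varied little among themselves. The means were 15.7 ± 1.91 against 9.63 ± 0.343, with a log2 fold change of 0.69 (SE 0.09, 95% confidence interval 0.50 to 0.89, limma adjusted p = 0.000158). Of its transcripts, XM_018038591.1 was called, at 15.1 ± 1.93 against 9.06 ± 0.421 (adjusted p = 0.001003 over all transcripts). The other, XM_018038590.1, was at 0.634 ± 0.117 against 0.571 ± 0.145 and was not called (adjusted p = 0.728). Unequal change of the pair was not called (diffSplice, adjusted p = 0.133).

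CBR4 was higher too, at 10.5 ± 2.30 against 6.92 ± 0.580 FPKM, with a log2 fold change of 0.58 (limma adjusted p = 0.00526). It was the 1 call among 9 genes for mitochondrial fatty acid synthesis, and the other 8, among them MECR, MCAT and OXSM, were not called. The median log2 fold change of this list was -0.01, and 43.7% of all genes tested were called.

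HSD17B4 is the bifunctional enzyme of peroxisomal beta-oxidation, which hydrates and then oxidizes the chain. Its FPKM was 39.8, 40.8, 43.6, 43.5 and 39.8 in luteal replicates 1 to 5, and 36.2, 34.1, 36.0, 36.0 and 39.8 in follicular replicates 1 to 5. Of the luteal ovaries, 4 of 5 lay above every follicular ovary, and the highest follicular ovary, replicate 5, was level with the lowest luteal ones. The log2 fold change was small, 0.19, and called (SE 0.06, 95% confidence interval 0.05 to 0.32, limma adjusted p = 0.0278). The call was lost with quantile normalization (0.12, adjusted p = 0.170), with eBayes without its trend (adjusted p = 0.0549) and without luteal replicate 3 or 4 or follicular replicate 1, 3 or 4. The only transcript of HSD17B4 was not called in the test over all transcripts (limma adjusted p = 0.0653).

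Of 19 genes for peroxisomal beta-oxidation, 5 rose in luteal ovaries, 1 fell and 13 were not called, with a median log2 fold change of 0.10. Among all genes tested, 15.9% were called higher in luteal ovaries and 27.8% lower. The gene that fell, ACOX3, was not called without the filter, with a common median, quantile normalization or TPM, or without any 1 of luteal replicates 2 to 5 or follicular replicates 1, 3 and 5, and 7 genes rose with a common median or quantile normalization. The risen genes were PHYH, CROT, ABCD4, SCP2 and AMACR, and of these PHYH acts in alpha-oxidation and ABCD4 in cobalamin transport. PHYH, which hydroxylates branched phytanic acid, was at 77.3 ± 12.1 against 21.8 ± 4.86 FPKM (log2 fold change 1.83, limma adjusted p = 6.34e-06). CROT, which turns shortened chains into carnitine esters, was higher by 1.01 on the log2 scale, and ABCD4 by 0.84. SCP2, a thiolase and sterol carrier, was at 53.1 ± 4.79 against 41.0 ± 3.47 (log2 fold change 0.37, adjusted p = 0.00386).

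**Figure D4:**
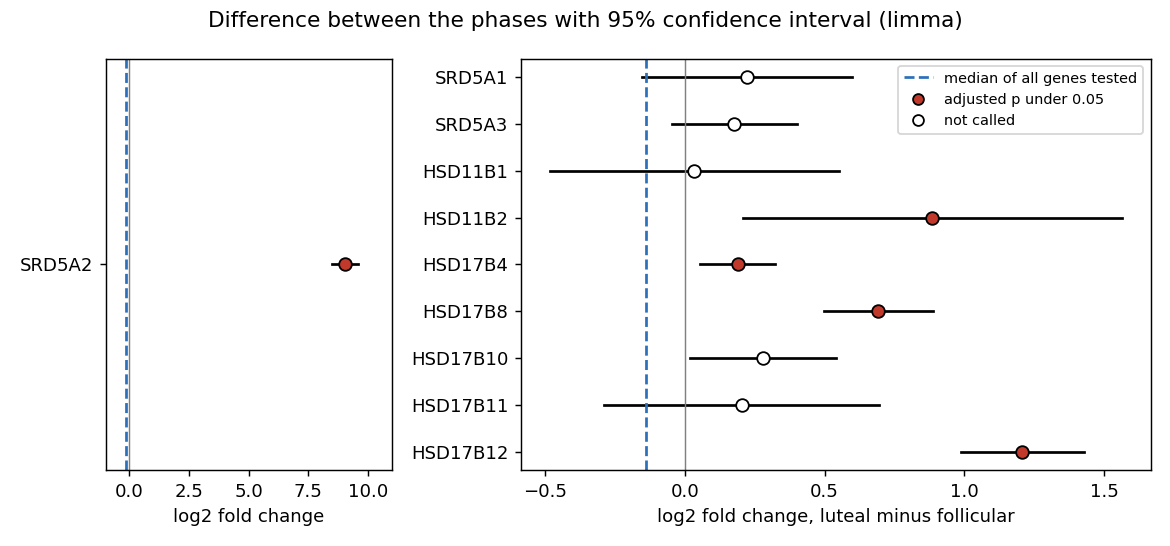
Log2 fold change of each of the 10 genes, luteal minus follicular, with its 95% confidence interval from limma, and the median of all genes tested, -0.14, as a line. The interval of HSD17B10 lies above 0, but its adjusted p is 0.0774.

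HSD17B10 had the highest median of the family in both phases, and in luteal ovaries its range overlapped that of SRD5A2. The protein sits in the mitochondrion, where it breaks down isoleucine and is a subunit of the RNase P that cuts mitochondrial transcripts. Its FPKM was 103, 119, 94.1, 135 and 126 in luteal replicates 1 to 5, and 103, 108, 76.6, 98.9 and 87.8 in follicular replicates 1 to 5. Luteal replicates 2, 4 and 5 lay above all follicular ovaries, and the ranges overlapped. The log2 fold change of 0.28 was not called (SE 0.12, limma adjusted p = 0.0774). It was called with a common median (0.36, adjusted p = 0.0491), with TPM (0.38, adjusted p = 0.0204), with the replicate block, and without luteal replicate 3 or follicular replicate 2.

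The RNase P partners were not called. TRMT10C was at 27.2 ± 2.42 against 25.3 ± 2.33 FPKM (limma adjusted p = 0.345), and KIAA0391, the older symbol of the nuclease subunit PRORP, was at 9.90 ± 0.624 against 11.1 ± 0.685 (adjusted p = 0.0937). Of the 15 genes tested for mitochondrial RNase P and isoleucine breakdown, 6 rose in luteal ovaries, 1 fell and 8 were not called, with a median log2 fold change of 0.13. Calls over all genes tested were 15.9% higher and 27.8% lower in luteal ovaries. Of the risen genes of the list, ACADSB and ECHS1 act in isoleucine breakdown and DLD is shared by several dehydrogenase complexes. ACAD8 belongs to valine breakdown, and HADHA and HADHB to long chain fatty acid oxidation. HADHB, a subunit of the mitochondrial trifunctional protein, was higher by 1.03 on the log2 scale, ACADSB by 0.85 and ACAD8 by 0.70. ACAT1, the thiolase that follows HSD17B10, was the gene that fell (log2 fold change -0.50, adjusted p = 0.00805).

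HSD17B11 is a dehydrogenase of lipid droplets. It was at 24.8 ± 4.03 against 22.4 ± 7.58 FPKM. The follicular ovaries, from 12.1 to 33.1, spread wider than the luteal ones, from 17.8 to 27.8, and no luteal ovary lay above the highest follicular ovary. The difference was not called (log2 fold change 0.20, 95% confidence interval -0.29 to 0.70, limma adjusted p = 0.485), and without follicular replicate 2, the lowest ovary, the log2 fold change was 0.0015 (adjusted p = 0.995). Its close relative HSD17B13, another lipid droplet protein, was at 0.233 ± 0.108 against 0.175 ± 0.0669 and was not called (adjusted p = 0.552).

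Of 14 lipid droplet genes tested, 4 rose in luteal ovaries, 2 fell and 8 were not called, with a median log2 fold change of -0.07. With a common median, quantile normalization or TPM, 1 fell. Over all genes tested, 15.9% were called higher in luteal ovaries and 27.8% lower. PLIN2, which coats the droplets, was at 109.7 ± 18.3 against 33.1 ± 8.04 FPKM (log2 fold change 1.75, limma adjusted p = 2.59e-05). CIDEC, which fuses droplets, was higher by 1.67 on the log2 scale at a low level, 0.475 against 0.0726 FPKM, and PLIN4 was lower (log2 fold change -0.97).

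The 17-beta genes of the family summed to 273 ± 27.2 against 196 ± 11.01 FPKM. HSD17B10 held the largest share in both phases, 42.1 ± 2.24% and 48.3 ± 4.45%. HSD17B12 held 27.7 ± 1.45% in luteal and 16.7 ± 1.71% in follicular ovaries, and its lowest luteal share, 26.2%, lay above its highest follicular share, 18.6%. The shares of the others overlapped between the phases.

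Of the other hydroxysteroid dehydrogenases and their relatives, 13 were tested, 6 rose in luteal ovaries, 2 fell and 5 were not called. The median log2 fold change of these 13 was 0.23. The shares called over all genes tested were 15.9% higher and 27.8% lower in luteal ovaries. HSD17B7 (3.34 on the log2 scale) and NSDHL (2.54), which act in cholesterol synthesis, changed most. HSD17B14, which can oxidize estradiol, was at 2.73 ± 0.731 against 0.945 ± 0.732 FPKM (log2 fold change 1.67, limma adjusted p = 0.00887). HSDL2, a peroxisomal relative, was at 49.3 ± 5.44 against 34.6 ± 3.08 (log2 fold change 0.51, adjusted p = 0.00117). HSD17B1, which makes estradiol in granulosa cells, and HSD11B1L fell, with log2 fold changes of -1.24 and -0.85. HSD17B2, HSD17B3 and AKR1D1 did not pass the filter and were listed at 0 in at least 1 ovary.

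**Figure D5:**
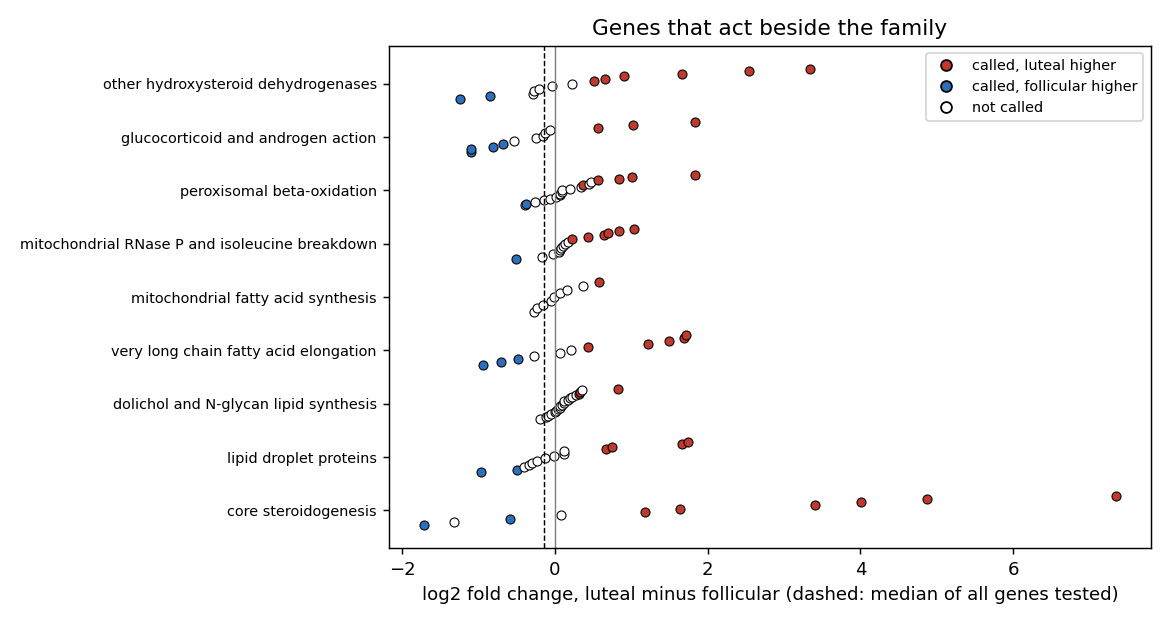
Log2 fold change, luteal minus follicular, of the tested genes of the 9 lists that act beside the family, 1 point per gene, with called genes in colour and the median of all genes tested, -0.14, as a line. Calls in both directions appear in 7 of the lists as plotted, of which the peroxisomal list has no follicular call with a common median, quantile normalization or TPM, and the dolichol list, with luteal calls alone here, has 1 follicular call with quantile normalization.

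Markers of other cells differed between the phases as well. The counts below stand beside 15.9% of all genes tested called higher in luteal ovaries and 27.8% called lower. In summed FPKM, luteal before follicular, 8 endothelial markers ran 263 to 335 against 152 to 183 (7 called higher) and 6 smooth muscle markers 636 to 1160.1 against 1353 to 1712 (6 called lower). The 10 granulosa markers ran 213 to 802 against 335 to 1303, with 5 lower and 1 (NR5A2) higher, and the 10 oocyte markers 9.07 to 20.9 against 17.2 to 49.7, with 6 lower. Of 6 theca markers (2244 to 3405 against 192 to 279) 3 were lower and 2 higher, and those 2, STAR and LHCGR, are also on the corpus luteum list. Endothelial and smooth muscle sums did not overlap between the phases, while granulosa and oocyte sums did. Of 7 stroma markers (3376 to 5659 against 2639.6 to 3747) 3 were higher and 1 lower, and of 6 macrophage markers (132 to 208 against 73.3 to 132) 3 were higher. Of 6 lymphocyte markers tested (6.83 to 18.1 against 6.78 to 18.1) 1 was higher, and of 5 surface epithelium markers tested (26.2 to 47.7 against 29.8 to 64.0) 1 was higher and 2 were lower. Of these calls, that of the macrophage gene TYROBP was lost with quantile normalization and without any 1 of luteal replicates 1, 2, 4 and 5 or follicular replicates 1 to 4, that of the lymphocyte gene CD8A without luteal replicate 4 or 5, and that of the surface epithelium gene WT1 with TPM. The erythroid markers ALAS2 and SLC4A1 were at or near 0 in all ovaries. The part of these markers' cells in the differences of the family was not tested.

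The deviations of the ovaries from the mean of their phase were compared between genes. Pearson's r of these phase-centred log2 values over the 10 ovaries is a description, since all points share the scaling of their library. Over the 45 pairs within the family the median r was -0.07, and 24 were negative. HSD17B4 with HSD17B11 was the highest (0.80), followed by HSD17B10 with HSD17B12 (0.78), and SRD5A1 with HSD11B2 was the lowest (-0.80). The genes that follow were picked for their high r among all genes tested, so the size of r comes in part from the choice. An r of at least 0.9 was reached by 27 genes with SRD5A2 and by 111 with HSD17B11. The follicular deviations of SRD5A2 also depend on the pseudocount. Among all named genes tested, those most like SRD5A2 were GLYCTK (0.95) and RNF185 (0.95), and those most like HSD17B12 were NDUFA6 (0.94) and CISD2 (0.94). HSD17B10 was most like SDHA (0.98) and WBSCR22 (0.97), where SDHA is a subunit of succinate dehydrogenase. HSD17B8 was most like HAP1 (0.93) and SH3GLB2 (0.90), HSD17B4 most like PJA2 (0.95) and GNB5 (0.93), and HSD17B11 most like ZC4H2 (0.98) and ERICH6 (0.98). For SRD5A1 the genes were TIMM10 (0.95) and EMP1 (0.90), for SRD5A3 FANCF (0.95), for HSD11B1 DOCK1 (0.95) and NINJ1 (0.90) and for HSD11B2 FKBP15 (0.95) and ASAP3 (0.95).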

How the data were processed

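Total RNA of 10 goat ovaries was freed of ribosomal RNA and sequenced in strand-specific, paired-end libraries. The authors used HISAT2 for alignment, StringTie for assembly and Cuffdiff for the deposited FPKM per transcript and ovary, with no pooling of ovaries. The genome build is not given in the sources used here, so no coordinates are printed. How Cuffdiff divided reads among the transcripts of a gene sets the values per transcript.

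FPKM of rows typed protein coding were summed by symbol and tested with limma 3.58.1 in R 4.3.3 (lmFit, eBayes using a mean trend), with a pseudocount of 0.1 and no further scaling. Transcripts were tested likewise, and diffSplice was run on 6481 genes with several tested transcripts. In the check of the scripts the share of wrong calls was above the threshold for both tests, a little for the gene test, which also missed some of the smaller changes, and far for diffSplice, so no weight is put on the calls of the latter. Ratios were compared by exact permutation with scipy 1.17.1.

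The members and the lists were chosen with earlier results of these data known. CYP11A1 (LOC102173131) and CYP17A1 (LOC102182663) were found through synonyms in RefSeq's goat annotation (assembly ARS1.2), and listed genes not in the table were not analysed here. Named genes are the family, its direct partners, the 3 called genes with the largest change of each list, and the 2 genes with the highest r to each member, of which 3 named by this rule are not reported here. CYP17A1, CYB5A, HSD17B1, HSD11B1L, ACAT1, ACOX3, AMACR, ECHS1, DLD, HADHA, ELOVL2, ELOVL4, HACD1, MECR, MCAT and OXSM were named after their values were seen. Tried as alternatives were another pseudocount (1 or 0.01), a minimum FPKM of 0.5 or none, scaling by a common median, quantiles or TPM, eBayes with no trend, blocking by replicate number, the most abundant transcript per gene, other sets of rows and leaving out each ovary.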

Additional observations from a re-analysis of the deposited data

Results flagged for a closer look

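In a group of 5 ovaries, 1 ovary was singled out where its gap to the nearest other ovary took up more than 0.71 of the group's range (Dixon's test). Of 22 groups examined, 2 held such an ovary, and chance alone gives about 1 in 20. HSD11B1 was at 3.09 FPKM in luteal replicate 3, far above the 1.32 to 1.79 of the other luteal ovaries. HSD17B11 was at 17.8 FPKM in luteal replicate 1, far below the 25.01 to 27.8 of the others, and without that ovary its log2 fold change was 0.32 and still not called (limma adjusted p = 0.277). Without follicular replicate 2 it was 0.0015 (adjusted p = 0.995).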

How the results depend on the processing

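HSD17B8 and HSD17B12 kept their direction and their call under all 22 alternatives each. Of these, 1 used a second set of rows with identical values and could not differ. HSD17B12 has 1 transcript, so its estimate could not change with the most abundant transcript either. SRD5A2 also kept its direction and call under all 22, but these calls do not show stability. With all 5 luteal ovaries in a fit, they alone carried it past the filter. Without 1 of them, follicular replicate 1, at 0.1002 FPKM, was needed to reach 5 ovaries. SRD5A1, SRD5A3 and HSD17B11 stayed uncalled under all 22, with HSD17B11 between 0.0015 (without follicular replicate 2) and 0.36 when single ovaries were left out. HSD11B1, not called in any, turned negative in 2 fits that left out an ovary, at -0.16 without luteal replicate 3 and -0.09 without follicular replicate 3, within a range from -0.16 to 0.13. Leaving out each ovary gave from 3 to 6 called members, from 2 to 7 called member transcripts and from 3 to 5 calls in the dolichol list (5 without follicular replicate 2). Without any 1 luteal ovary, transcripts of SRD5A2 no longer reached the filter in 5 ovaries, and the transcript count was 2. The dolichol list had 6 calls in place of 3 with a common median, 6 with TPM and 6 with quantile normalization, where 1 of the 6 was toward follicular ovaries. The mitochondrial fatty acid synthesis list had 2 in place of 1 with TPM. Unequal change of transcripts was called in 321 genes, in 698 with a pseudocount of 1, in 503 without the filter and in 217 to 322 without single ovaries. The cause of these differences was not tested. The difference in the HSD11B1 to HSD11B2 log2 ratio was -0.46 with a pseudocount of 1, and from -0.997 to -0.591 without single ovaries. Equal replicate numbers are not tied to each other by the labels, and the correlation of their deviations ran from 0.03 to 0.20, with 2 of 5 luteal ovaries most like the follicular ovary of their own number. With the replicate block 6 members were called, HSD17B10 being the added one (limma adjusted p = 0.0334), all genes gave 7020 calls against 6711, and the paired difference of the ratio was -0.85 (exact sign-flip p = 0.1875, a test that cannot go below 0.0625 with 5 pairs and so says nothing about stability).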
